A study of Mus musculus with 6 samples.

Results

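The genes described here are 32 genes of glycolysis and of the response to low oxygen, measured in flat skull bones (calvaria) from 13del-tg mice and wild-type littermates. They were chosen by name, as the transporters and enzymes that carry glucose to lactate and as well-known genes of the hypoxia response. Each gene was read from the brightest probe set that the platform annotation ties to its symbol alone. That gave 29 of the 32 genes. Bnip3l, Eno1 and Gpi1 had no such probe set and are not analysed here, and Car9 was too dim for the test, so 28 of the 12859 genes tested in the series are members. Both genotypes were taken at 10 days of age from parietal bones that had been embedded and cryosectioned. The labels describe the 13del-tg animals as mutants with bone overgrowth that express a Col10a1-13del transgene, and the controls as wild type. The promoter of the transgene, the number of founder lines and the animals' sex do not appear in the labels.

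Per genotype, 3 samples are labelled as biological replicates, and each has its own column of Affymetrix intensities. The columns of 13del-tg 1 and control 1 held the same value for 45101 of 45101 probe sets, whereas any other pair of columns shared 0.115% to 0.213% of them. That array, the shared array below, is shown apart and assigned to neither genotype, and 13del-tg 2 and 3 were compared with controls 2 and 3. Values are deposited intensities on a linear scale, scaled to a trimmed mean of 500.003 on each. They carry no detection calls, and 2 arrays per genotype limit the precision of every value. Col10a1, the collagen X gene, read 15689 and 11584 in 13del-tg 2 and 3, against 149.8 and 158.2 in controls 2 and 3, and 152.2 on the shared array. Osteoblast markers were present on every array: the markers tested, 8 of 12 listed, summed to 206983 and 233302 in 13del-tg and to 183333 and 210520 in controls, with 132436 on the shared array. Muscle was present too, and unequally. The 16 skeletal muscle markers, all tested and none at 0, summed to 340496 and 235968 in 13del-tg 2 and 3, against 242061 in control 2 and 35389 in control 3. Control 3 thus stood 6.67-fold below the lowest of the other arrays, and the shared array had 322495. In bulk tissue fewer cells of a type and less RNA per cell cannot be told apart.

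As background, glycolysis splits glucose into pyruvate in the cytosol and yields ATP without oxygen, and lactate dehydrogenase then turns pyruvate into lactate. Osteoblasts are known to rely strongly on this route. When oxygen is scarce, the prolyl hydroxylases of the Egln family no longer mark the transcription factor HIF-1alpha, the product of Hif1a, for degradation. It then binds short DNA elements and switches on glucose transporters, glycolytic enzymes, the vessel growth factor Vegfa and genes that limit mitochondrial activity. Hif1a itself is controlled mostly through its protein, so its transcript is a poor gauge of the pathway.

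The core of the DNA element that HIF binds was searched for, as ACGTG or GCGTG on either strand, in the 250 bases before each RefSeq transcript start (GRCm38.p6). CACGTG holds ACGTG on both strands and counts as 2 matches. Promoters were listed for 30 of the 32 genes, 48 starts in all, and not for Bnip3l or Ndrg1. ACGTG was present before 22 of the 48 starts (45.8%), against 16.6% of all 32851 promoters of that length. GCGTG was present before 24 (50%), against 28.2% of all promoters. Some starts of 1 gene lie so close that their windows share matches, as for Ak4, Aldoa and Eno1, so the 48 are not separate promoters. Counted by gene, ACGTG was present for 19 of 30 (63.3%), against 18.5% of all genes with a promoter listed. GCGTG was not counted by gene. The members' promoters were also richer in CG pairs, with a median of 17.5 against 6 over all promoters. Among promoters with at least 10 CG pairs, ACGTG was present in 54.1% of the members' and 24.4% of all, whereas GCGTG was present in 48.6% and 52.9%. A match is a description of letters and was not tied to binding. The sequences below are a selection from the members. Egln3 had the widest range over the arrays, Hk1 the smallest p, and Ankrd37 stood out on the shared array. Hk2 is the other hexokinase measured. Fam162a and Ldha are among the 5 members that were brighter on both 13del-tg arrays. The others of those, Ak4, Hif1a and Vegfa, are not shown. Capitals mark the core letters on either strand.
Egln3 (chr12:54203875-54204124, minus strand): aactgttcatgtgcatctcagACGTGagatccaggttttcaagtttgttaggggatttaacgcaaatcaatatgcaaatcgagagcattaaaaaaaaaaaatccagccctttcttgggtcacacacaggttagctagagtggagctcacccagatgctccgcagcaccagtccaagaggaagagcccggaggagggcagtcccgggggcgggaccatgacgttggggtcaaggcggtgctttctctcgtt
Fam162a (chr16:36071562-36071811, minus strand): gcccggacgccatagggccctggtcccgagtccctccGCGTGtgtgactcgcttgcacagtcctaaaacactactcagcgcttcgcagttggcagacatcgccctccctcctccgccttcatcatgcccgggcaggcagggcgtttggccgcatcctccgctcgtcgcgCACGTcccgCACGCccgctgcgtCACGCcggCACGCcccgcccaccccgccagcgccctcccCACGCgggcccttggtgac
Ldha, first start (chr7:46845554-46845803, plus strand): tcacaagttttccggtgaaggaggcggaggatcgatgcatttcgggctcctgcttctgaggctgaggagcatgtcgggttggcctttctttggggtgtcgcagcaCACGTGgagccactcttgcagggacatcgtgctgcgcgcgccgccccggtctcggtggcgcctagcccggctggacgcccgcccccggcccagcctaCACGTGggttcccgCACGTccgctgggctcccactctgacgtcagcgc
Hk2 (chr6:82774455-82774704, minus strand): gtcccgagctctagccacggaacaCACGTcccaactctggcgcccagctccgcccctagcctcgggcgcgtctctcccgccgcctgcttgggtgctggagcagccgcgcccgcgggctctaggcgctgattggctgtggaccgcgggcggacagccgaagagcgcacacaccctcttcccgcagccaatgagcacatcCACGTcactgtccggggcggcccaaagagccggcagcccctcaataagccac
Ankrd37 (chr8:45999851-46000100, minus strand): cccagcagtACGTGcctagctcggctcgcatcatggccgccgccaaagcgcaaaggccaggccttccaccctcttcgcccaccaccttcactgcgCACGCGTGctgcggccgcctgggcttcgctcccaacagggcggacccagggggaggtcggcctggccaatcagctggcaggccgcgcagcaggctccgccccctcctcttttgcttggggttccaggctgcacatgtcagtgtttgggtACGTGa
Hk1, upstream start (chr10:62379909-62380158, minus strand): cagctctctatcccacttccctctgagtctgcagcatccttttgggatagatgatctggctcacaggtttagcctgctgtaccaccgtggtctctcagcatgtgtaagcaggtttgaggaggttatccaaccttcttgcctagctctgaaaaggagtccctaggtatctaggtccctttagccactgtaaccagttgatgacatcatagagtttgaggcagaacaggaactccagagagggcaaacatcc
Hk1, downstream start (chr10:62340422-62340671, minus strand): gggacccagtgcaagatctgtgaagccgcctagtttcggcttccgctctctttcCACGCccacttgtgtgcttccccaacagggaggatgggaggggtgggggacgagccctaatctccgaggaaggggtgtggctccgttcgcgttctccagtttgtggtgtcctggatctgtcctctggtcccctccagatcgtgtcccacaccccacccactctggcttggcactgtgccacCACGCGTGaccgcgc
Fam162a held 1 ACGTG and 5 GCGTG. The first Ldha start held 5 ACGTG and Hk2 held 2. The second Ldha start, not shown, held 0 ACGTG and 1 GCGTG. The upstream Hk1 start held none in this window, and the downstream start held 3 GCGTG.

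The comparison asked whether these genes differed between the genotypes. None of the 28 members passed an adjusted p of 0.05 by limma with Benjamini-Hochberg adjustment over all genes, where 0.0622% of all genes passed, 0.0156% higher and 0.0467% lower in 13del-tg. At an unadjusted p under 0.05 there was 1 member, Hk1, or 3.57%, against 6.8% of all genes. The median log2 difference of the members was 0.011, with values from -0.83 to 1.0, and that of all genes tested was -0.074. Both 13del-tg arrays were above both controls for 5 members, where this held for 13.4% of all genes (17.9% of members), and below both for 7, where this held for 26.3% (25% of members). Of the 28 differences, 15 were positive, or 53.6%, against 41.2% over all genes. With arrays centred on the median, all genes had a median of 0.11 and the members 0.19, with 23 positive, so the direction of small differences depends on the scaling. For a single gene an exact two-sided permutation of 2 arrays against 2 cannot give a p below 0.333.

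**Figure D1:**
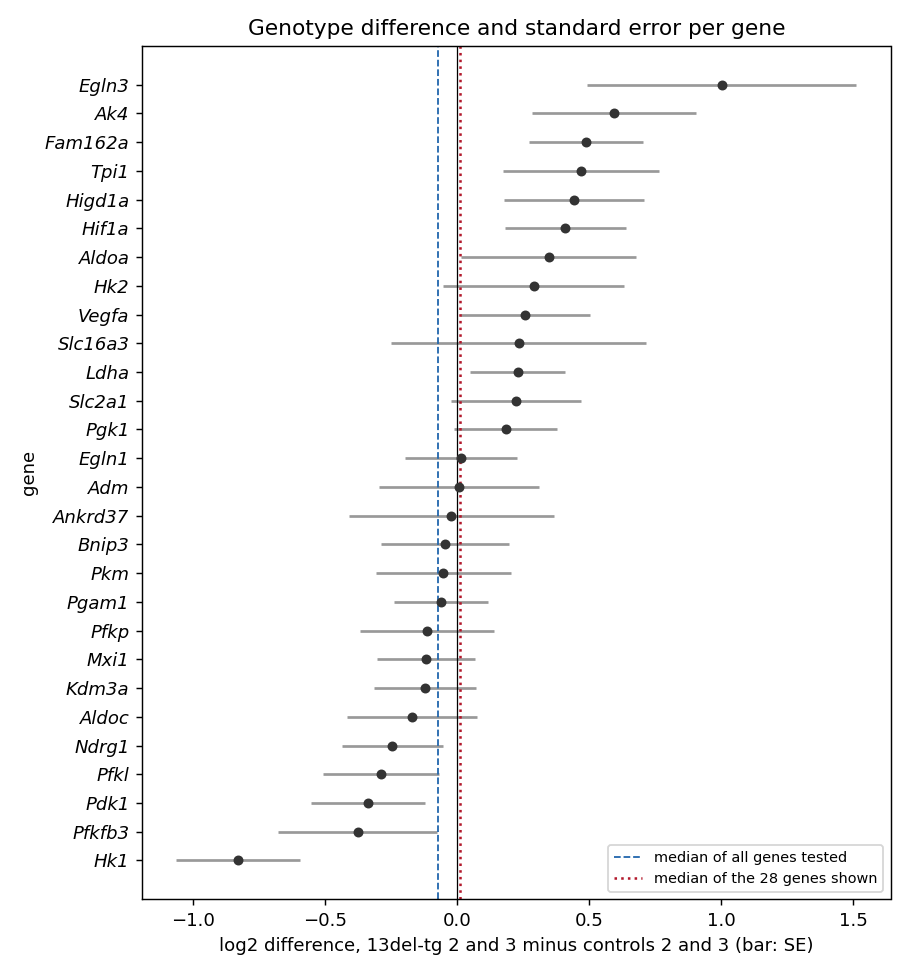
Log2 difference of each of the 28 tested genes, 13del-tg 2 and 3 minus controls 2 and 3, on the log2(intensity + 16) scale; points are estimates and bars the limma standard error. The dashed line is the median of all genes tested (-0.074) and the dotted line that of the genes shown (0.011); Egln3 lies at 1.0 and Hk1 at -0.83, and none of the genes shown passed the adjusted threshold.

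Control 3 stood low for many of these genes. It was the lowest of the 5 distinct arrays for 15 of the 28 members, where this held for 20.6% of all genes. Of these 15 members, 13 had a positive genotype difference, and of the 13 other members 2 had one. Control 3 enters the control mean, so a low value there itself raises the difference, and the split follows in part from that. The same split was not counted over all genes. For 16 members the 2 controls lay farther apart than the 2 genotype means, where this held for 54.6% of all genes. Control 3 was also the array with little muscle signal, lowest of all arrays for 16 of 16 muscle markers. Without control 3 the median member difference was -0.091, against -0.063 over all genes. There 10 of 28 members were positive, and the share of all genes was not counted. Without control 2 the median was 0.21 for members and -0.094 for all genes. The part of muscle in these differences was not tested. Control 2 was above control 3 for 20 members, where this held for 47.9% of all genes, and 13del-tg 2 was above 13del-tg 3 for 17, where this held for 53.2%.

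**Figure D2:**
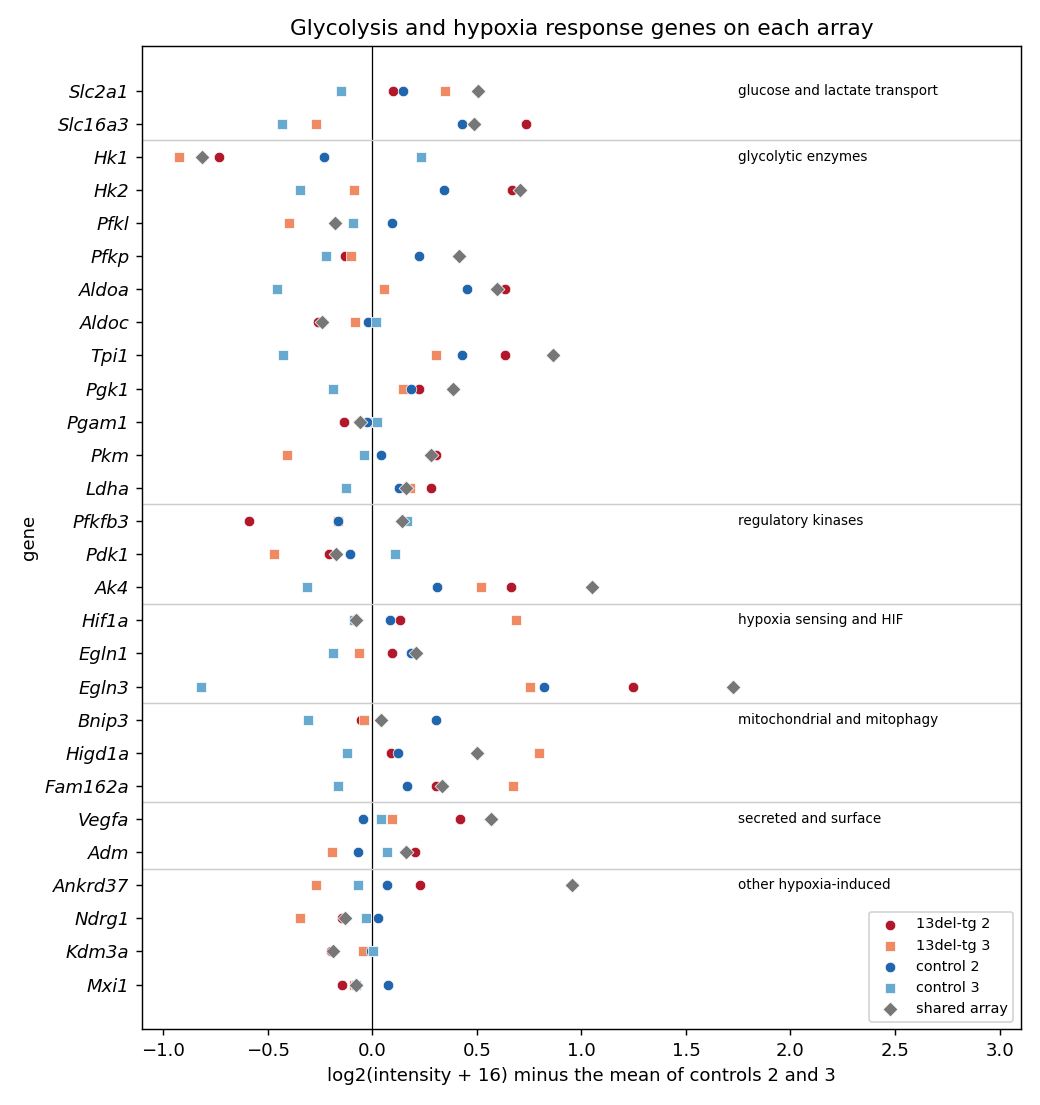
Each gene's log2(intensity + 16) on each array minus the mean of controls 2 and 3, in rows grouped by role; circles and squares are replicates 2 and 3 of each genotype and diamonds the shared array. The light blue squares of control 3 lie at the left for Egln3, Tpi1, Aldoa and Ak4, and the shared array lies at the right for Egln3, Ak4, Ankrd37 and Tpi1.

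Of the transporters, Slc2a1, which brings glucose into the cell, read 478.7 and 571.9 in 13del-tg, against 496.5 and 401.1 in controls, and 640.6 on the shared array. The groups overlapped (log2 difference 0.22, SE 0.25). A second Slc2a1 probe set had -0.99 and another -0.18, so its direction depends on the probe set. Slc16a3, the lactate exporter, read 192.0 and 87.6 in 13del-tg, against 152.2 and 76.7 in controls. In each genotype replicate 2 was above replicate 3, and the genotypes overlapped (0.23, SE 0.48).

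Glucose is first phosphorylated by hexokinases, and the 2 forms measured had differences of opposite sign. Hk1, the form of red cells, brain and most other tissues, read 912.2 and 798.5 in 13del-tg (855 ± 80.4, SD, n = 2), against 1299 and 1797 in controls (1548 ± 352, SD, n = 2). Both 13del-tg arrays were below both controls, and the mean was 1.78-fold lower on the log2(intensity + 16) scale (log2 difference -0.83, SE 0.24), with an unadjusted p of 0.00965 and an adjusted p of 0.614 by limma. Its other probe set had -0.98. The shared array had an Hk1 intensity of 862.0, within the range of the 13del-tg arrays. The difference was -0.60 without control 3, where its unadjusted limma p was 0.0854, and -1.06 without control 2. Markers of red cell precursors were lower on the 13del-tg arrays too: the 5 erythroid markers tested, of 10 listed and with none at 0, summed to 5086 and 4790 in 13del-tg, against 12870 and 14613 in controls, with 10215 on the shared array. Their brightest, Alas2, the first enzyme of heme synthesis in red cells, read 2238 and 1907 in 13del-tg, against 6083 and 7404 in controls. Of the 5, 4 had both 13del-tg arrays below both controls, and Tmod1, a cap of actin filaments, overlapped (0.27, SE 0.43). The erythroid sum on the shared array lay between the 13del-tg arrays and the controls, and so did Alas2 (4203), Slc4a1, Epb42 and Klf1. Tmod1 had its highest value there, 2817, so where the sum lies between the genotypes depends on Tmod1. The 9 pineal and photoreceptor markers tested, of 11 listed and with none at 0, were low on the 13del-tg arrays as well, summing to 524.8 and 547.3, against 5018 and 10440 in controls, with 675.4 on the shared array. The part of these cells in the Hk1 difference was not tested.

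Hk2, the hexokinase of muscle and of HIF-induced cells, read 1079 and 632.0 in 13del-tg, against 858.5 and 525.9 in controls, and 1108 on the shared array. The spread within each genotype exceeded the difference (0.29, SE 0.34), which was -0.054 without control 3.

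Of the 9 enzymes downstream, Aldoa, the aldolase of muscle and most other tissues, read 20087 and 13420 in 13del-tg, against 17705 and 9413 in controls, and 19534 on the shared array. Tpi1, triose-phosphate isomerase, read 13482 and 10731 in 13del-tg, against 11689 and 6443 in controls, with the highest value, 15835, on the shared array. Pgk1, phosphoglycerate kinase, read 7647 and 7246 in 13del-tg, against 7452 and 5756 in controls, and 8576 on the shared array. In all 3 genes control 3 was the lowest array, and the differences of 0.35 (SE 0.33), 0.47 (SE 0.29) and 0.18 (SE 0.19) became -0.11, 0.041 and -0.0015 without it. The Aldoa probe set bears a suffix for probes that also match other transcripts, so related sequences may contribute. One further Aldoa probe set ran the other way (-0.097), and 3 others had 0.38 to 0.42.

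Ldha, which turns pyruvate into lactate, read 10999 and 10260 in 13del-tg (10629 ± 522, SD, n = 2), against 9894 and 8292 in controls (9093 ± 1133, SD, n = 2), and 10119 on the shared array. Both 13del-tg arrays were above both controls, by a small amount that did not pass (0.23, SE 0.18, adjusted p = 0.754 by limma). Pgam1, a phosphoglycerate mutase, was the most even of the 28 genes, at 2994 and 3319 in 13del-tg, against 3232 and 3346 in controls, and 3157 on the shared array. Its highest array was 1.12-fold its lowest. Pkm, pyruvate kinase of muscle and growing cells, read 6283 and 3834 in 13del-tg, against 5234 and 4947 in controls, so that the 2 controls lay between the 2 13del-tg arrays. Pkm and Pgam1 had differences of -0.052 (SE 0.25) and -0.061 (SE 0.18).

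Among the phosphofructokinase subunits, Pfkl, the liver-type subunit, read 761.1 and 651.1 in 13del-tg, against 922.4 and 808.2 in controls. The groups did not overlap (-0.29, SE 0.22), and its 2 other probe sets had -0.56 and -0.40. Pfkp, the platelet-type subunit, read 428.4 and 437.2 in 13del-tg, against 550.3 and 400.7 in controls, with overlap (-0.11, SE 0.26). Aldoc, the aldolase of brain, read 293.0 and 332.7 in 13del-tg, against 349.0 and 358.4 in controls, a difference (-0.17, SE 0.25) smaller than its error.

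None of the 3 regulatory kinases passed the test. Ak4, a mitochondrial adenylate kinase induced by hypoxia, read 332.1 and 299.1 in 13del-tg (316 ± 23.3, SD, n = 2), against 256.3 and 160.9 in controls (209 ± 67.5, SD, n = 2). The log2 difference was 0.59 (SE 0.31, adjusted p = 0.715 by limma) with groups apart, but a second Ak4 probe set had 0.058, and the shared array was above them all at 439.3. Pdk1, which blocks pyruvate entry into the citric acid cycle, read 1006 and 835.9 in 13del-tg, against 1078 and 1256 in controls (-0.34, SE 0.22). Its 2 other tested-level probe sets had 0.24 and -0.0043. Pfkfb3, which makes the activator of phosphofructokinase, read 178.7 and 246.1 in 13del-tg, against 245.6 and 312.8 in controls (-0.38, SE 0.30). The 13del-tg and control ranges of Pfkfb3 just met.

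In the oxygen-sensing group Egln3, a HIF prolyl hydroxylase that HIF itself induces, had the largest difference of the 28 genes and the widest spread. It read 755.2 and 532.9 in 13del-tg (644 ± 157, SD, n = 2), against 558.0 and 167.9 in controls (363 ± 276, SD, n = 2), and 1059 on the shared array. Control 2 lay between the 13del-tg arrays, control 3 far below, and the shared array above all 4. The log2 difference was 1.0 (SE 0.51, adjusted p = 0.715 by limma). It was 0.18 without control 3 and 1.82, with an adjusted p of 0.0301, without control 2, where 232 genes passed. The second Egln3 probe set had 0.40. Egln1, the main hydroxylase at normal oxygen, read 2011 and 1804 in 13del-tg, against 2147 and 1656 in controls, with a difference (0.014, SE 0.21) that was near 0. Hif1a read 5140 and 7573 in 13del-tg (6356 ± 1720, SD, n = 2), against 4982 and 4420 in controls (4701 ± 397, SD, n = 2), and 4445 on the shared array. The Hif1a groups did not overlap, but 13del-tg 3 alone made most of the difference (0.41, SE 0.23), which was 0.13 without it. The other tested-level Hif1a probe sets had 0.27 and 0.046.

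None of the 3 mitochondrial genes passed the test. Fam162a, a HIF target of mitochondria, read 4285 and 5522 in 13del-tg (4903 ± 874, SD, n = 2), against 3883 and 3084 in controls (3483 ± 565, SD, n = 2), and 4366 on the shared array. This was the positive difference with the smallest unadjusted p, 0.0574 (0.49, SE 0.22, adjusted p = 0.715 by limma), and the groups did not overlap. Higd1a, a survival factor of the respiratory chain, read 2713 and 4431 in 13del-tg, against 2773 and 2336 in controls. Its difference (0.44, SE 0.27) lay in 13del-tg 3 and was 0.091 without that array. The other tested-level Higd1a probe sets had 0.16 and -0.0092. Bnip3, which marks mitochondria for removal, read 2389 and 2414 in 13del-tg, against 3072 and 2003 in controls, so that the 13del-tg arrays lay between the controls (-0.047, SE 0.24).

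Of the secreted and surface genes, Vegfa, the main vessel growth factor, read 505.4 and 399.8 in 13del-tg (453 ± 74.7, SD, n = 2), against 362.2 and 385.3 in controls (374 ± 16.3, SD, n = 2), and 561.1 on the shared array. Both 13del-tg arrays were above both controls, 13del-tg 3 by little (0.26, SE 0.25, adjusted p = 0.800 by limma). The second Vegfa probe set had 0.20, but its groups overlapped, at 198.8 and 112.1 in 13del-tg, against 125.9 and 130.4 in controls. Adm, the vasodilator adrenomedullin, read 226.5 and 168.1 in 13del-tg, against 184.3 and 204.6 in controls (0.0074, SE 0.30). Car9, a carbonic anhydrase induced strongly by hypoxia, was dim everywhere, at 29.2 and 35.5 in 13del-tg, against 59.9 and 46.0 in controls, and 79.2 on the shared array. Its mean lay below the filter, a signal of 61.9, and no test was made.

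The remaining 4 hypoxia-induced genes had small negative differences, and none passed. Ndrg1, a stress-induced gene of differentiating cells, read 1671 and 1454 in 13del-tg, against 1887 and 1813 in controls, without overlap (-0.25, SE 0.19), and its 4 other probe sets ran from -0.56 to -0.41. Kdm3a, a histone demethylase, read 1246 and 1388 in 13del-tg, against 1428 and 1436 in controls (-0.12, SE 0.19). Mxi1, an antagonist of Myc, read 1990 and 2072 in 13del-tg, against 2325 and 2087 in controls (-0.12, SE 0.19). Kdm3a and Mxi1 turned to 0.063 and 0.067 with arrays centred on the median. Ankrd37, a small ankyrin-repeat gene that HIF induces, read 107.8 and 71.7 in 13del-tg, against 94.9 and 84.8 in controls, but 189.0 on the shared array (genotype difference -0.021, SE 0.39).

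The shared array had the highest value of the 5 for 10 members, where this held for 25.6% of all genes, and the lowest for none, where this held for 24.3%. The 10 were Ak4, Ankrd37, Egln1, Egln3, Hk2, Pfkp, Pgk1, Slc2a1, Tpi1 and Vegfa. Against the mean of the controls, the median of the 28 genes was 0.25 on that array, 0.11 and -0.054 on 13del-tg 2 and 3, and 0.11 and -0.11 on controls 2 and 3. Col10a1 read 152.2 on it, at the level of the controls. The array was still assigned to neither genotype, since it carries labels of both.

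Other genes of the same pathways were taken from 2 lists drawn up by function. Of 37 further genes of glycolysis, glycogen and pyruvate use, 32 were tested, and limma adjusted over all genes called 0. Before adjustment 0 were higher and 2 were lower at p under 0.05, where 1.49% of all genes were higher and 5.31% lower. Their median difference was 0.15. The 2 lower genes were Eno2, the neuronal enolase, at 218.5 and 217.9 in 13del-tg, against 396.5 and 476.5 in controls (-0.94, SE 0.26), and Bpgm, which makes the bisphosphoglycerate of red cells, at 1373 and 2096 in 13del-tg, against 2791 and 2850 in controls (-0.73, SE 0.24). The erythroid and the pineal and photoreceptor sums given above were low on the same 2 arrays, and their part was not tested. Pygl, the liver glycogen phosphorylase, had -0.50 (SE 0.24).

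The muscle forms of glycolytic enzymes spread widely over the arrays. Pgam2, muscle phosphoglycerate mutase, read 9184 and 5688 in 13del-tg, against 6436 and 565.1 in controls, and 12549 on the shared array. Eno3, muscle enolase, read 11772 and 5460 in 13del-tg, against 7598 and 936.4 in controls, and 13139 on the shared array. Pfkm, the muscle phosphofructokinase, read 6857 and 3386 in 13del-tg, against 5211 and 1719 in controls, and 9108 on the shared array. Each was lowest on control 3 and highest on the shared array, as were Ak4, Egln1, Egln3, Hk2, Pfkp, Pgk1, Slc2a1 and Tpi1 among the members. Taken singly, 20.6% of all genes were lowest on control 3 and 25.6% were highest on the shared array. The share of all genes with both was not counted, and the part of muscle in those members was not tested. For Pgam2, Eno3 and Pfkm the groups overlapped, with differences of 1.90 (SE 0.96), 1.58 (SE 0.87) and 0.68 (SE 0.53). Fbp2, muscle fructose bisphosphatase, had 2.49 (SE 1.22). Without control 2, whose loss leaves control 3 alone, 5 of these 32 passed (15.6%), Eno3, Fbp2, Pdk4, Pgam2 and Pygm, where 1.8% of all genes did.

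**Figure D3:**
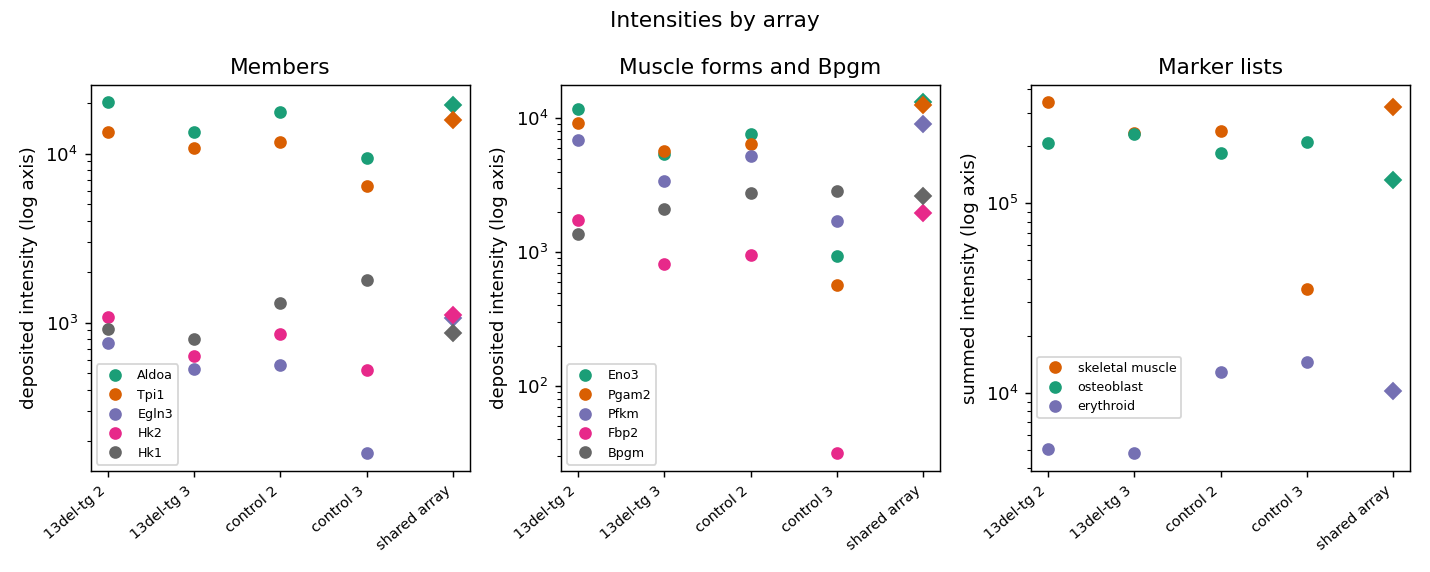
Deposited intensities of 5 members (left), of muscle enzyme forms and Bpgm (middle) and summed intensities of 3 marker lists (right) on each array, all on log axes; circles are 13del-tg 2 and 3 and then controls 2 and 3, and diamonds the shared array. Control 3 is lowest for Aldoa, Tpi1, Egln3 and Hk2, for the muscle forms and for the muscle markers (35389), whereas Hk1, Bpgm and the erythroid sum are lower on both 13del-tg arrays than on both controls.

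Of 43 further genes of the hypoxia pathway, 40 were tested, and limma adjusted over all genes called 0. Before adjustment 3 were higher and 1 was lower at p under 0.05, where 1.49% of all genes were higher and 5.31% lower. Their median difference was -0.13. Both 13del-tg arrays were above both controls for 6 of the 40 and below both for 13, where this held for 13.4% and 26.3% of all genes. The 3 higher genes were Igfbp3, P4ha2 and Nfil3. Igfbp3, a binding protein of insulin-like growth factors, read 7009 and 6627 in 13del-tg, against 3472 and 5015 in controls (0.71, SE 0.22). P4ha2, a collagen prolyl hydroxylase, read 3914 and 4262 in 13del-tg, against 3010 and 2897 in controls (0.47, SE 0.18), and P4ha1, its sister subunit, read 3641 and 3462 in 13del-tg, against 2756 and 2770 in controls (0.36, SE 0.18). Igfbp3, P4ha1 and P4ha2 had both 13del-tg arrays above both controls, and their lowest value was on the shared array, at 2837, 2642 and 2770. Nfil3, a transcription factor, read 406.8 and 440.1 in 13del-tg, against 281.8 and 251.2 in controls (0.64, SE 0.25). Its groups did not overlap either, but its shared-array value, 421.9, lay between the 13del-tg arrays. The lower gene was Tfrc, the transferrin receptor that red cell precursors carry in number, at 4138 and 3937 in 13del-tg, against 7722 and 5614 in controls (-0.70, SE 0.21). Cxcr4, a chemokine receptor of marrow cells, had -0.95 (SE 0.40).

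None of the core regulators passed the test. Epas1, which encodes HIF-2alpha, read 7342 and 8207 in 13del-tg, against 8150 and 6274 in controls (0.12, SE 0.20). Arnt, the partner subunit of both HIF proteins, read 634.7 and 619.4 in 13del-tg, against 658.7 and 656.3 in controls (-0.067, SE 0.21). Vhl, which targets HIF for degradation, read 807.1 and 888.4 in 13del-tg, against 965.0 and 1099 in controls (-0.28, SE 0.21), below both controls on both arrays by less than 2 standard errors. Ddit4, a stress-induced inhibitor of mTOR, read 1574 and 1882 in 13del-tg, against 1153 and 3413 in controls (-0.20, SE 0.46), and its controls lay on either side of both 13del-tg arrays.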

How the data were processed

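Deposited intensities of 6 samples were used, 3 per genotype, 1 value per probe set. Per the submitters' processing notes the authors used MAS5, whose version is not given in the sources used here. Scaling had brought the arrays to one trimmed mean (2% left out at each end). MAS5 signals are noisy when dim, hence log2(intensity + 16) was taken here, a scale that understates changes of dim genes. The test left the shared array out, but the array counted in the mean over the 5 distinct arrays that set the filter and chose each probe set. After 64 control probe sets were removed, 27022 of 45037 reached the 40th percentile of mean log2 values (6.28, equal to an intensity of 61.9) and stayed in. Of those 45037, 34945 had 1 symbol in the platform annotation (34741 matched to the reference table by gene number), 932 several and 9160 none. The brightest of these stood for a gene. Of 18 members with several, 4 had probe sets of both signs.

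The test of 13del-tg against control was limma's (version 3.58.1 under R 4.3.3), using lmFit and a mean trend in eBayes. Its two-sided p-values were adjusted by Benjamini-Hochberg across 12859 genes, with a threshold of 0.05, on 2 residual and 5.01 prior degrees of freedom. The code was tested on simulated data. The labels call the samples biological replicates, and the series' design calls the controls littermates, but neither says which animals shared a litter. The members and lists were chosen with earlier results of these data known, so no list was tested as a set. All members are named. From each pathway list, genes were named by role (Epas1, Arnt, Vhl, Pfkm, Eno3, Pgam2, P4ha1, P4ha2, Ddit4), with up to 4 more of the smallest unadjusted p. Gapdh had no probe set of 1 symbol. Of 8 marker lists, endothelial, chondrocyte, neutrophil and osteoclast markers had median differences of -0.19, -0.90, -0.81 and -0.39, osteoblast markers 0.14, muscle 1.70, erythroid -2.11 and pineal and photoreceptor -4.12. Promoter sequences are RefSeq's. Alternatives changed the pseudocount, filter, normalization, probe set rule, variance moderation, block, arrays and use of the shared array.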

Additional observations from a re-analysis of the deposited data

Results flagged for a closer look

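The shared array, which the main comparison left out, was above both controls for 17 of the 28 members, where this held for 34.5% of all genes. It was the highest of all 5 arrays for 10 of these members. Among them were Egln3, at 1059 against 558.0 and 167.9 in controls 2 and 3, Ak4, at 439.3 against 256.3 and 160.9, and Ankrd37, at 189.0 against 94.9 and 84.8. Muscle markers were high on that array too, with a sum of 322495, and their part was not tested.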

How the results depend on the processing

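Of 17 alternatives, 15 left no member past the adjusted threshold, by limma in each. The fit with the replicate block had 2, Egln3 (adjusted p = 0.00745) and Hk1 (adjusted p = 0.0102), and the fit without control 2 had 1, Egln3. With the replicate block 609 genes passed (4.74%), 12 of them further pathway genes. These were 8 of 32 glycolysis, glycogen and pyruvate genes (25%) and 4 of 40 hypoxia genes (10%). The 8 were Bpgm, Eno2, Eno3, Fbp2, Pdk4, Pfkm, Pgam2 and Pygm, several of them muscle forms. In that fit 6 members had an unadjusted p under 0.05, where 13.8% of all genes did. The block fit rests on 1 residual degree of freedom. The differences of replicate 2 minus 3 correlated at 0.27 between the genotypes over all genes, but no label ties a number to a litter or day and there were only 2 pairs, so the block was not taken as the main result. Genes past the threshold, 8 as reported, were 2 with a pseudocount of 1, with the 60th percentile filter and with quantile normalization, 3 with a pseudocount of 64, 1 without a filter, without the trend and when the shared array counted as a control, 30 with arrays centred on the median (3 higher and 27 lower, against 2 and 6 as reported), 25 with robust eBayes and 0 with the shared array in both groups, where 192 had an unadjusted p under 0.05. At an unadjusted p under 0.05, 21.9% of genes were higher as reported, 59.1% with arrays centred on the median and 31.2% with quantile normalization. Leaving out 1 array, which leaves a lone array assumed to vary like the others, gave 1 to 232 genes, 0 to 1 members, 0 to 5 further pathway genes, 0 to 6 members at an unadjusted p under 0.05 and a median member difference of -0.091 to 0.21. That median was 0.19 with arrays centred on the median. Members at an unadjusted p under 0.05 were 2 with centring (all genes 5.75%), 3 when the shared array counted as 13del-tg (all genes 6.97%), and 0 when it counted as a control or in both groups. The sign held in all alternatives for 13 of the 28 members. It was positive for Ak4, Egln3, Fam162a, Hif1a, Higd1a, Ldha, Tpi1 and Vegfa, and negative for Hk1, Ndrg1, Pdk1, Pfkfb3 and Pfkl. The filter, variance moderation and block alternatives left the difference of each member tested unchanged. Counting the shared array in both groups only shrank each difference, so none of those alternatives could turn a sign. With arrays centred on the median the sign turned for Pfkp (0.070), Aldoc (0.012), Pgam1 (0.12), Pkm (0.13), Bnip3 (0.14), Ankrd37 (0.16), Kdm3a (0.063) and Mxi1 (0.067). It turned with quantile normalization for Ankrd37 (0.17), with the mean of probe sets for Slc2a1 (-0.32), when the shared array counted as 13del-tg for Pfkp (0.063), Pkm (0.059) and Ankrd37 (0.30), and when it counted as a control for Egln1 (-0.056) and Adm (-0.046). When 1 array was left out the ranges that crossed 0 were -0.27 to 0.74 for Slc16a3, -0.087 to 0.67 for Hk2, -0.34 to 0.11 for Pfkp, -0.11 to 0.80 for Aldoa, -0.0015 to 0.37 for Pgk1, -0.13 to 0.013 for Pgam1, -0.41 to 0.30 for Pkm, -0.17 to 0.20 for Egln1, -0.35 to 0.26 for Bnip3, -0.19 to 0.21 for Adm and -0.27 to 0.23 for Ankrd37. The cause of these changes was not tested.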
